A study of Homo sapiens with 23 samples.

Results

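Small nucleolar RNA (snoRNA) host genes are transcribed into spliced, mostly noncoding RNAs whose introns carry snoRNAs, the guides for chemical modification of ribosomal RNA. The 10 host genes described here, GAS5, SNHG1, SNHG3, SNHG5, SNHG6, SNHG7, SNHG8, SNHG9, SNHG12 and SNHG15, were grouped as hosts with a terminal oligopyrimidine (TOP) start. The annotated starts given below show it for only some of them. They were found by gene symbol in the probe annotation, and 14 of the 47231 probes read on the arrays belonged to them. Each gene had 1 probe, except SNHG5 and SNHG15 with 2 each and SNHG7 with 3.

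A TOP transcript begins with a cytidine followed by an unbroken run of pyrimidines at its 5′ end. This feature is best known from the mRNAs of ribosomal proteins and translation factors, whose loading onto ribosomes depends on mTOR signalling through the cap-binding protein LARP1 and the EIF4E-binding proteins. Several host gene RNAs with such a start are bound by ribosomes although they hold no long reading frame, and the spliced RNAs of GAS5 and SNHG1 are known targets of nonsense-mediated decay, which degrades an RNA once it has been translated. In polysomal RNA the host RNAs can therefore be read beside the mRNAs known for such a start.

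RNA had been taken from the pooled polysomal fractions 9 to 11 of 2 lines of diffuse large B-cell lymphoma (DLBCL) and hybridised to 23 Illumina HumanHT-12 arrays. SUDHL-2 is an activated B cell-like line and SUDHL-4 a germinal centre B cell-like line. In the INK128 experiment each line had received 40 nM INK128, an inhibitor of the mTOR kinase, for 24 h (3 arrays) or 0.01% DMSO, its solvent (3 arrays). In the EtOH experiment each line had received 20 mM ethanol (EtOH) for 48 h (SUDHL-2, 2 arrays; SUDHL-4, 3 arrays) or water (3 arrays each), and the EtOH cultures were kept in sealed flasks. Nothing in the labels names a genetic change, and each subtype was represented by 1 cell line, so line and subtype cannot be told apart. The study describes its replicates as independent without saying whether they were separate cultures, and the p-values measure the spread between these arrays.

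An array detected between 14699 and 17098 probes (median 15360), where detected means a deposited detection p at or under 0.02 against the negative controls of the array. Probes of the B cell genes MS4A1, CD79A, CD79B and CD22 were detected in both lines, while PAX5 was not detected on any array. Of the T cell genes, CD3D and CD3E were detected on 0 of 23 arrays, CD3G on 1 and CD2 on 21 (10 of SUDHL-2 and 11 of SUDHL-4), with signals of 61.6 to 170.3 for CD2. Of the epithelial genes, KRT18 and KRT19 were detected on 0 arrays and EPCAM by each of its 3 probes on all 11 SUDHL-2 arrays, with 1 probe also on 1 SUDHL-4 array. SERPINA9, of the germinal centre type, was detected on all 12 SUDHL-4 arrays and on 0 SUDHL-2 arrays. The other genes of this type were also detected in SUDHL-2. BCL6 and LMO2 were detected on all 23 arrays, MYBL1 on 5 SUDHL-2 arrays and 1 MME probe in both lines. Of the activated type, IRF4, BATF, ENTPD1 and TNFRSF13B were detected on all 11 SUDHL-2 arrays, IRF4 also on 2 SUDHL-4 arrays. CCND2 was detected on at most 2 arrays, of SUDHL-2. Of the monocyte genes, CSF1R, FCGR1A and 1 CD14 probe were detected on 0 arrays. The other CD14 probe was detected on 10 arrays, 9 of them of SUDHL-4, with signals of 55.7 to 90.6, close to background. Each array had received 0.5 μg of RNA, so a level is a share of the RNA in the pooled polysomes. Whether a difference arose from the amount of a transcript or from its loading onto polysomes cannot be told apart without total RNA.

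The annotated starts were examined first, because the start is what these genes are grouped by. The RefSeq promoter table (GRCh38.p14) held 7 of the 10 genes, and SNHG6, SNHG9 and SNHG15 are named only. The 30 bases from 10 before the annotated start to 20 from it are shown 5′ to 3′ on the strand of the gene, and capitals mark the first run of at least 5 pyrimidines (C or T).
GAS5 (chr1:173869026-173869055, minus strand): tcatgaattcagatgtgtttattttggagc
SNHG1 (chr11:62855866-62855895, minus strand): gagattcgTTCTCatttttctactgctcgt
SNHG3 (chr1:28505933-28505962, plus strand): gtgagTTTCTgattctctaactgcgcatgc
SNHG5 (chr6:85678714-85678743, minus strand): gcacttcggTCTTTTacgtcggccttcgcg
SNHG7 (chr9:136728165-136728194, minus strand): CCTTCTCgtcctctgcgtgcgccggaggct
SNHG8 (chr4:118278752-118278781, plus strand): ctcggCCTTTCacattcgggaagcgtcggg
SNHG12 (chr1:28581854-28581883, minus strand): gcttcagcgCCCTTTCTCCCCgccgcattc

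SNHG5 and SNHG12 were the 2 of 7 genes with a C at the annotated start followed by at least 4 pyrimidines. Of all 35116 promoters in the table, 4.1% had such a start, against 43 of 63 promoters (68.3%) of cytosolic ribosomal protein genes and 4 of 12 (33.3%) of other noncoding snoRNA host genes. SNHG1, SNHG7 and SNHG8 also had a C at the start, followed by fewer pyrimidines. In SNHG1 it lay inside a run of 5 that began 2 bases before it. In SNHG7 it lay inside a later, unmarked run, and in SNHG8 it was the last base of the marked run. In SNHG7 and SNHG8 a C followed by at least 4 pyrimidines began within 10 bases of the annotated start, as in 33.5% of all promoters. No such run lay within 10 bases of the annotated starts of GAS5, SNHG1 and SNHG3. The start shown for SNHG12 lies inside the annotated gene (chr1:28578538-28582983, minus strand), whose outermost start was not examined. Annotated starts can lie away from the start used by a cell, and the arrays did not measure start sites.

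By annotation the genes differ in how many snoRNAs they carry. GAS5 (chr1:173863901-173869045) holds 11 annotated snoRNAs and SNHG1 (chr11:62851978-62855885) 9, while SNHG6, SNHG8, SNHG9 and SNHG15 hold 1 each (SNORD87, SNORA24, SNORA78 and SNORA9). SNHG3, SNHG6, SNHG7 and SNHG12 overlap RCC1, MCMDC2, DIPK1B and TRNAU1AP, and GAS5 overlaps GAS5-AS1 and ZBTB37. The positions of the probes were not used here, and a probe of an overlapping gene could in part read its neighbour.

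Signals of the 10 genes covered the range from background to among the brightest on the array. The GAS5 probe was detected on 0 of 23 arrays, with signals of 43.3 to 91.0 and detection p from 0.026 to 0.394. GAS5 is named for its accumulation in growth-arrested cells, and its RNA is abundant in many cell types. The SNHG3 probe, whose gene hosts SNORA73A and SNORA73B, was detected on 1 of 23 arrays (SUDHL-2 with INK128, replicate 3), with signals of 47 to 82.3. Neither probe was tested, and a signal this close to background from 1 probe gives no level for the gene. The other 8 genes were represented by 12 probes, each detected throughout at least 1 group, and 10 of these were detected on all 23 arrays.

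**Figure D1:**
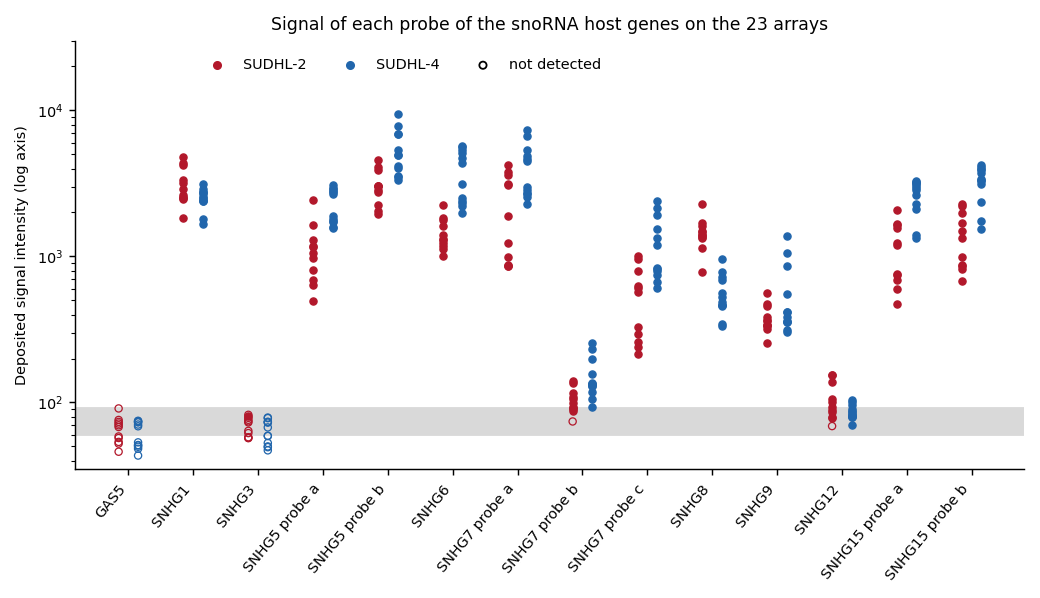
Deposited signal intensity (log axis) of each of the 14 probes on the 23 arrays, SUDHL-2 in red and SUDHL-4 in blue, with open circles for arrays on which the probe was not detected and a grey band for the lowest detected signal of an array (59.4 to 91.4). GAS5 and SNHG3 lie in or under the band, SNHG12 (68.9 to 154.1) and SNHG7 probe b (74.1 to 253.4) reach from within it to above it, and the brightest probe, SNHG5 probe b, reaches 9418.

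The brightest was SNHG5 probe b, with signals of 1949 to 9418, which placed it between the 88.5th and the 97.5th percentile of the 18136 tested probes of an array. SNHG5 hosts SNORD50A and SNORD50B and was first described at a translocation with BCL6 in a B cell lymphoma. SNHG1, host of SNORD22 and SNORD25 to SNORD31, had signals of 1664 to 4760. SNHG12 (68.9 to 154.1) and SNHG7 probe b (74.1 to 253.4) lay close to background and were each undetected on 1 array. Below, a level is the log2 signal after each array had been brought to the same mean and spread over the tested probes, with 0 at the mean of the array, and a difference is between mean levels ± standard error. A probe was called at an adjusted p under 0.05 (limma, Benjamini-Hochberg over 18136 probes).

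The first comparison asked how the host RNAs in polysomes responded to INK128 in SUDHL-4. SNHG9 and SNHG15 fell, and SNHG7 probe c rose. Of the 12 probes, 4 were called lower and 1 higher, beside 15% of all tested probes called (7.05% lower and 7.95% higher). The median difference was -0.34 over the 12 probes and -0.06 over all tested probes.

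SNHG9, which hosts SNORA78 and lies next to the ribosomal protein gene RPS2, had signals of 856.8, 1390 and 1051 with DMSO and of 356.5, 304.6 and 416.8 with INK128. Every INK128 array lay below every DMSO array, and the signals with INK128 were in the range of those in SUDHL-2. They were also near those of untreated SUDHL-4 in the EtOH experiment (315.6 to 415.8 with water), so the DMSO arrays were the high group. The level was 1.91 ± 0.42 (SD, n = 3) with DMSO and 0.36 ± 0.16 (SD, n = 3) with INK128. The difference was -1.55 ± 0.23 (adjusted p = 0.000934), or 0.341 times the DMSO level, and 0.1% of all tested probes had an equal or lower difference. It was called under all 17 alternative settings, which gave -1.75 to -1.34.

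SNHG15 hosts SNORA9, and its spliced RNA is known as short-lived. Probe a had signals of 3253, 3179 and 3262 with DMSO and of 1340, 1391 and 2102 with INK128. Probe b had signals of 3943, 3714 and 3918 with DMSO and of 1758, 1551 and 2349 with INK128. Both probes were lower on every INK128 array, and the third INK128 array was the highest of its group for both. The differences were -0.91 ± 0.15 for probe a (adjusted p = 0.00147) and -0.92 ± 0.17 for probe b (adjusted p = 0.00358), and both were called under all 17 alternative settings. Over the 23 arrays, with each line and experiment centred on its own mean, the 2 probes had a Pearson correlation of 0.901.

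The 3 probes of SNHG7, host of SNORA17A and SNORA17B, did not move together. Probe c (1205, 1544 and 1336 with DMSO; 1916, 2155 and 2403 with INK128) rose by 0.84 ± 0.21 (adjusted p = 0.0185). Probe a (4518, 4639 and 4835; 5379, 6655 and 7354) differed in the same direction by 0.68 ± 0.25 but was not called (adjusted p = 0.0891). Probe b, close to background, had 197.5, 253.4 and 233.8 with DMSO and 128.9, 157.2 and 136.0 with INK128, and fell by 0.67 ± 0.17 on the log2 scale (adjusted p = 0.0175). For each of the 3 probes the groups did not overlap.

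Across the 23 arrays SNHG7 probes a and c had a correlation of 0.883, and probe b correlated with neither (-0.215 and -0.379). With the probes of a gene averaged the difference of SNHG7 was 0.29 (adjusted p = 0.366). Probe c was not called without DMSO replicate 1 (0.72, adjusted p = 0.0802) or 3 (0.84, adjusted p = 0.06) or without INK128 replicate 1 (0.80, adjusted p = 0.0625) or 2 (0.74, adjusted p = 0.0752). Probe b was not called without DMSO replicate 2 (-0.57, adjusted p = 0.0785) or 3 (-0.64, adjusted p = 0.0668) or without INK128 replicate 1 (-0.67, adjusted p = 0.0528) or 3 (-0.54, adjusted p = 0.0707). Each of these calls held without the other array of either group, and the calls of SNHG9 and SNHG15 held without any single array.

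The remaining probes were not called in SUDHL-4. SNHG8, host of SNORA24, had 524.8, 563.4 and 686.6 with DMSO and 788.3, 719.5 and 955.2 with INK128 (0.60 ± 0.24, adjusted p = 0.118), with no overlap of the groups. SNHG5 probe b differed by -0.68 ± 0.25 (adjusted p = 0.0873), with overlap, and was called without INK128 replicate 1 (-0.92, adjusted p = 0.0313). SNHG1 (-0.35), SNHG5 probe a (-0.33), SNHG12 (-0.24) and SNHG6 (0.37) had 95% intervals that included 0. The groups did not overlap for 10 of the 12 probes, beside 36.0% of all tested probes.

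**Figure D2:**
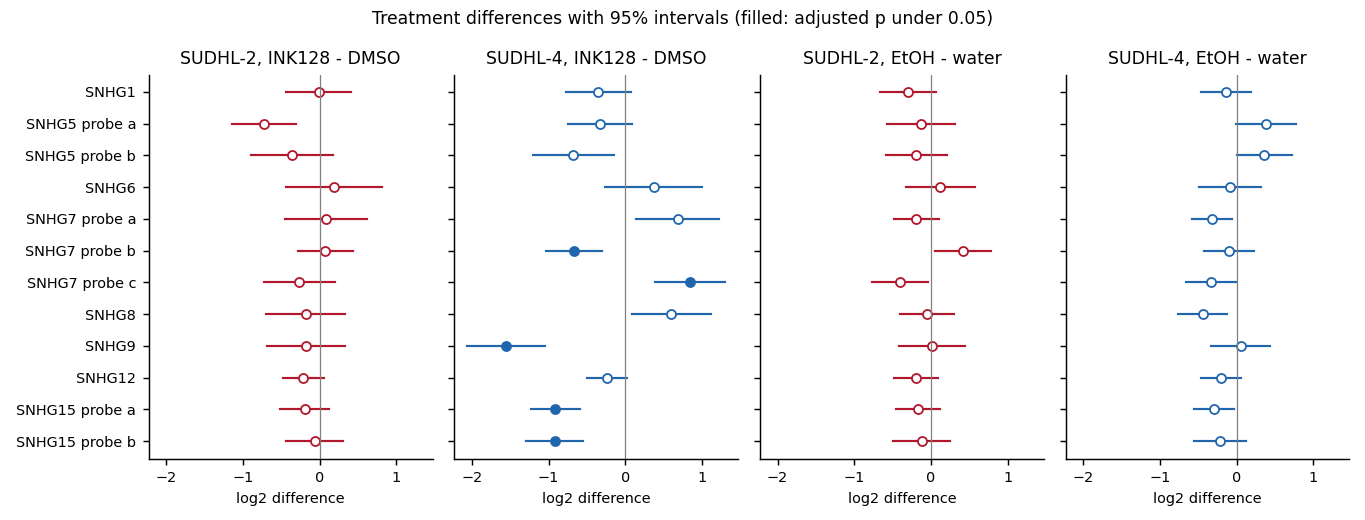
Difference in level (log2 scale) between treated and control arrays for the 12 tested probes in each line and experiment, with 95% intervals, filled where the adjusted p was under 0.05. SUDHL-4 with INK128 holds all 5 filled points, with SNHG9 farthest to the left at -1.55.

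Lists of related genes gave the context of these values. Of 7 probes of other noncoding snoRNA hosts, SNHG17 fell (-0.90 ± 0.15, adjusted p = 0.00178) and EPB41L4A-AS1 rose (1.01 ± 0.17, adjusted p = 0.00196) with INK128 in SUDHL-4, and 5 were not called. Of 110 probes of cytosolic ribosomal proteins, 17 fell and 1 rose, with a median of -0.05, and RPS15 (-2.04 ± 0.25, adjusted p = 0.000235) and RPS26 (-1.45 ± 0.13, adjusted p = 3.23e-05) had the smallest p among those that fell. Many ribosomal protein genes have near-identical pseudogenes, and their probes may read more than 1 gene. Of 27 probes of other TOP mRNAs, 2 rose and 2 fell, among them the elongation factor EEF1B2 (-1.15 ± 0.21, adjusted p = 0.00369) and the initiation factor EIF4B (0.53 ± 0.13, adjusted p = 0.0159).

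Of 30 probes for mRNAs of snoRNP proteins and their assembly factors, 8 fell, 0 rose and 22 were not called, with a median of -0.42. SNU13 binds the kink-turn of C/D snoRNAs, and its probe with the smallest p fell by 1.51 on the log2 scale (adjusted p = 0.000353). Those of NHP2 and GAR1, of the H/ACA particle, fell by 0.86 (adjusted p = 0.00893) and 0.83 (adjusted p = 0.000757). All of these genes had further tested probes, whose values are not given here. Of 16 probes of nonsense-mediated decay factors 0 were called, and of 19 probes of TOP-binding and cap regulators EIF4EBP1, a repressor of EIF4E, fell by 0.59 (adjusted p = 0.0086). Markers moved as well: 4 of 9 probes of the B cell list and 5 of 7 of the germinal centre list were called higher with INK128 in SUDHL-4, and 0 were called lower. Their part in the results for the host genes was not tested.

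In SUDHL-2 with INK128, 0 of the 12 probes were called, beside 3.51% of all tested probes (2.13% higher and 1.38% lower), and 1 had an unadjusted p under 0.05. That probe was SNHG5 probe a, with 2442, 1286 and 1063 with DMSO and 1174, 639.1 and 496.3 with INK128. The groups overlapped, and the difference was -0.72 ± 0.19 (adjusted p = 0.063), with a 95% interval of -1.14 to -0.30. It was called without INK128 replicate 1 (-0.95, adjusted p = 0.00906), with all arrays fitted together (adjusted p = 0.0239) and with the replicate numbers as a block (adjusted p = 0.0345). The second SNHG5 probe differed by -0.36 ± 0.25 (adjusted p = 0.527).

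SNHG9 in SUDHL-2 had 566.2, 472.2 and 331.4 with DMSO and 386.2, 253.7 and 341.8 with INK128. The groups overlapped, and the difference was -0.17 ± 0.23, with a 95% interval of -0.68 to 0.33. SNHG15 differed by -0.19 ± 0.15 and -0.07 ± 0.17, with lower bounds of -0.51 and -0.44. The arrays of SUDHL-2 with INK128 were the least alike of any group, with correlations of 0.957 to 0.985 between replicates over the tested probes, and those of SUDHL-4 with INK128 had 0.981 to 0.997.

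The difference between the responses of the lines to INK128 was tested itself. SNHG9 was called, as 1 of 12 probes beside 3.70% of all tested probes (1.91% higher and 1.79% lower in SUDHL-2). Its response in SUDHL-2 minus that in SUDHL-4 was 1.38 ± 0.33 (adjusted p = 0.0392). This call was lost in 13 of 22 alternative settings, among them leaving out DMSO replicate 1 (1.34, adjusted p = 0.0867) or 3 (1.24, adjusted p = 0.103) or INK128 replicate 3 of SUDHL-2 (1.22, adjusted p = 0.0693). It was also lost without DMSO replicate 2 (1.16, adjusted p = 0.0948) or 3 (1.39, adjusted p = 0.0926) of SUDHL-4, or without its INK128 replicate 1 (1.47, adjusted p = 0.0621), 2 (1.32, adjusted p = 0.0938) or 3 (1.34, adjusted p = 0.085). SNHG15 (0.72 ± 0.21 and 0.86 ± 0.24, adjusted p = 0.076 and 0.0731) and SNHG7 probe c (-1.11 ± 0.30, adjusted p = 0.062) were not called.

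EtOH moved none of the host genes past the threshold. In SUDHL-2, 0 of 12 probes were called, beside 17% of all tested probes (8.91% higher and 8.08% lower), and 2 had an unadjusted p under 0.05. These were SNHG7 probe b (99.7, 135.8 and 87.6 with water; 109.2 and 139.9 with EtOH; 0.41 ± 0.17, adjusted p = 0.121) and SNHG7 probe c (1007, 965.8 and 791.3; 622.8 and 609.1; -0.41 ± 0.17, adjusted p = 0.126). SNHG9 differed by 0.01 ± 0.20, with a 95% interval of -0.42 to 0.44. SNHG15 differed by -0.17 ± 0.13 (probe a) and -0.12 ± 0.17 (probe b).

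In SUDHL-4 with EtOH, 0 of 12 probes were called, beside 0.248% of all tested probes (0.215% higher and 0.0331% lower), and 5 had an unadjusted p under 0.05. With the title numbers as pairs, 2 probes in all were called in place of 45, and still 0 host gene probes. SNHG8 had 468.4, 468.2 and 489.4 with water and 460.4, 335.9 and 344.3 with EtOH, with no overlap (-0.44 ± 0.14, adjusted p = 0.197). SNHG9 had 415.8, 315.6 and 387.4 with water and 556.4, 357.0 and 358.6 with EtOH, which overlapped (0.05 ± 0.18, with a 95% interval of -0.33 to 0.44). The SNHG15 signals overlapped as well, with differences of -0.29 ± 0.12 and -0.22 ± 0.15.

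Single genes of the related lists were called with EtOH in SUDHL-2, beside 17% of all tested probes. Of the 16 probes of nonsense-mediated decay factors 2 rose and 4 fell (37.5% called), and of the 19 of TOP-binding and cap regulators 3 fell (15.8%). Of the ribosomal protein probes 12 of 110 fell and 0 rose (10.9% called), with the RPL13 probe of smallest p at -3.10 ± 0.18 (adjusted p = 2.46e-06). Of the other TOP mRNAs 5 of 27 fell and 0 rose (18.5%). Of the snoRNP probes 2 of 30 fell (6.67%), a GAR1 probe among them (-0.65 ± 0.16, adjusted p = 0.0159), and the other noncoding hosts had 0 of 7 called. In SUDHL-4 with EtOH 0 probes of these lists were called. The responses of the lines to EtOH differed for 0 of 12 host gene probes, beside 5.68% of all tested probes (2.71% higher and 2.97% lower in SUDHL-2), and 2 had an unadjusted p under 0.05. With the title numbers as pairs the count over all probes went from 1030 to 1817, with 0 host gene probes.

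EtOH and INK128 were then compared within each line, over 48 h of the one and 24 h of the other, so that agent, exposure time and vessel cannot be told apart. In SUDHL-2, 0 of 12 probes differed, beside 6.75% of all tested probes (2.69% higher and 4.07% lower), and 0 had an unadjusted p under 0.05. In SUDHL-4, 3 were called higher and 3 lower in the EtOH response than in the INK128 response, beside 8.72% of all tested probes (4.30% higher and 4.42% lower). SNHG9 was higher by 1.61 ± 0.31 (adjusted p = 0.0025), and the call held in all 21 alternative settings (1.37 to 1.81). Its levels were 1.91 with DMSO, 0.36 with INK128, 0.68 with water and 0.74 with EtOH, so this difference rests on the high DMSO group. SNHG7 probe c was lower by 1.18 ± 0.27 (adjusted p = 0.0093), a call that held in 20 of 21 settings and was lost with the probes of a gene averaged (-0.54, adjusted p = 0.153).

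The other 4 calls in this comparison lay close to the threshold. SNHG8 (-1.04 ± 0.30, adjusted p = 0.0322), SNHG7 probe a (-1.002 ± 0.297, adjusted p = 0.0399), SNHG5 probe b (1.04 ± 0.32, adjusted p = 0.047) and SNHG15 probe a (0.62 ± 0.19, adjusted p = 0.0481) were called in 9, 4, 7 and 5 of their 21 alternative settings. Leaving out any single array of SUDHL-4 ended at least 1 of these 4 calls and left between 2 and 4 of the 12 probes called. With the title numbers as a replicate block, 4 probes were called, and SNHG8 (adjusted p = 0.0575), SNHG7 probe a (adjusted p = 0.0503), SNHG5 probe b (adjusted p = 0.0521) and SNHG15 probe a (adjusted p = 0.0627) were not, while SNHG5 probe a (0.71, adjusted p = 0.0423) and SNHG15 probe b (0.70, adjusted p = 0.0481) were.

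**Figure D3:**
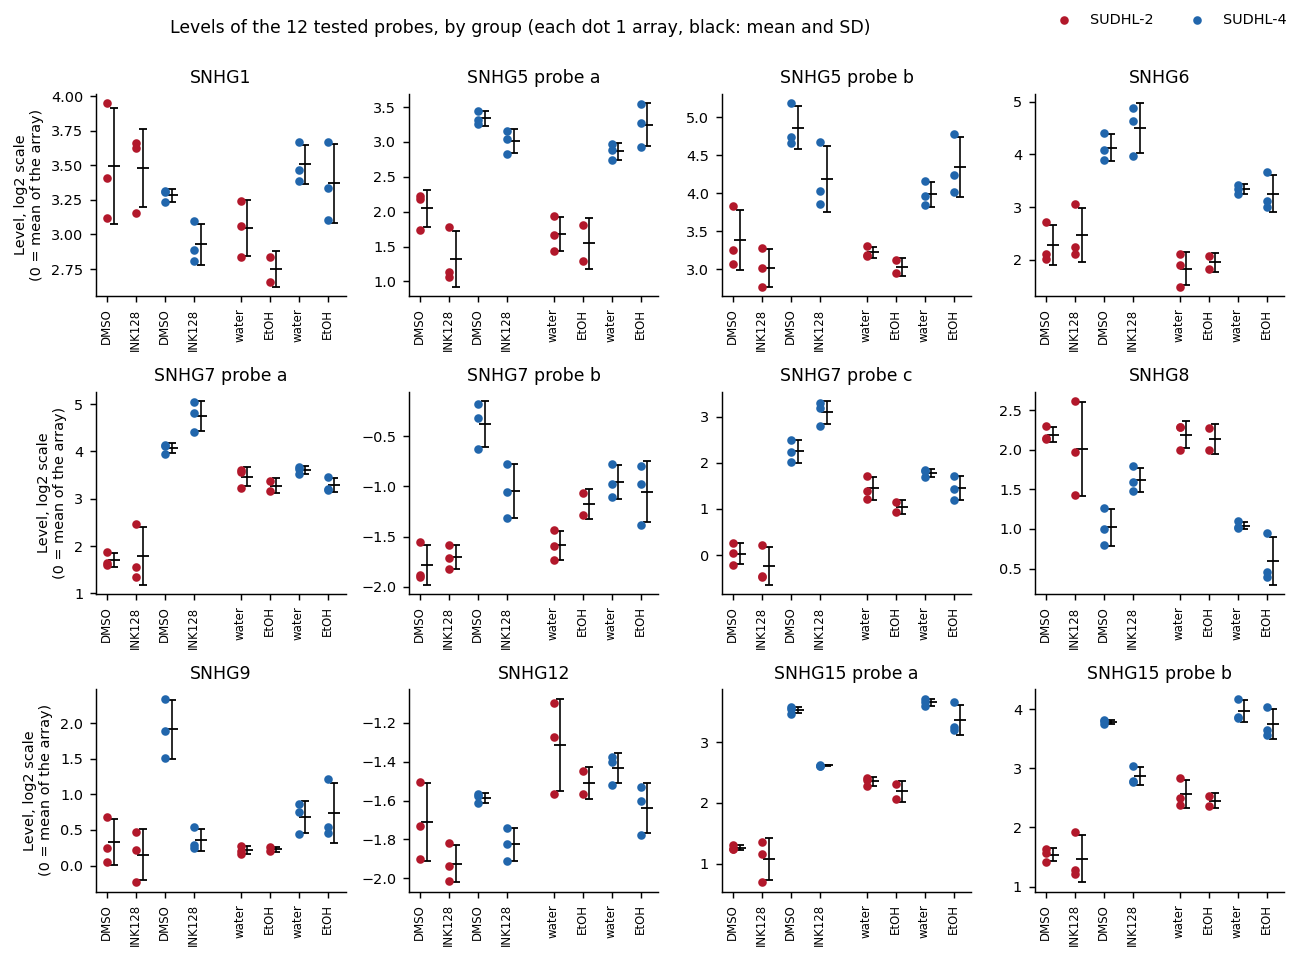
Level (log2 scale, 0 at the mean of the array) of the 12 tested probes in the 8 groups, each dot an array, with the mean and SD beside them, the INK128 experiment at the left and the EtOH experiment at the right of each panel, and a scale of its own for each panel. SNHG9 is higher in SUDHL-4 with DMSO than in the other 7 groups, SNHG8 is higher in SUDHL-2 with DMSO, water and EtOH, and SNHG7 probes a and c lie low in SUDHL-2 in the INK128 experiment only.

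Without treatment the lines differed widely. With DMSO, 9 of 12 probes were lower in SUDHL-2 and 1 was higher, beside 55.6% of all tested probes called (28.4% lower and 27.2% higher). With water, 8 were lower and 1 higher, beside 64.8% of all tested probes (37.0% lower and 27.8% higher). The median difference of the 12 probes was -1.53 with DMSO and -0.55 with water, and that of all tested probes was -0.08 and -0.11. Of the 9 probes of the B cell list, 7 were lower and 1 higher in SUDHL-2 in both comparisons (median -3.51 with DMSO and -2.43 with water).

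SNHG8 was the gene higher in SUDHL-2 in both comparisons. Its signals were 2300, 1394 and 1395 with DMSO and 1489, 1697 and 1475 with water in SUDHL-2, and 524.8, 563.4, 686.6, 468.4, 468.2 and 489.4 in the same groups of SUDHL-4. The differences were 1.17 ± 0.24 (adjusted p = 0.000963) and 1.14 ± 0.14 (adjusted p = 3.59e-05), called under all 14 alternative settings of each.

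SNHG6, host of SNORD87, was lower in SUDHL-2 in both experiments. Its signals were 2251, 1841 and 1287 against 4367, 5603 and 4689 with DMSO, and 1314, 1172 and 1126 against 2497, 2205 and 2336 with water. The groups did not overlap, and the differences were -1.85 ± 0.29 (adjusted p = 0.000137) and -1.51 ± 0.18 (adjusted p = 2.7e-05). SNHG5 probe a (-1.29 ± 0.19 and -1.19 ± 0.18) and probe b (-1.48 ± 0.25 and -0.76 ± 0.16) were called in both comparisons and under every alternative setting.

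SNHG15 was lower in SUDHL-2 with both probes. Probe a had 1240, 688.1 and 751.6 with DMSO and 1632, 2090 and 1571 with water in SUDHL-2, where SUDHL-4 had 2940, 2830 and 3014 with water. The differences were -2.27 ± 0.15 with DMSO (adjusted p = 6e-08) and -1.31 ± 0.12 with water (adjusted p = 2.26e-06) for probe a. Probe b gave -2.25 ± 0.17 and -1.40 ± 0.15 (adjusted p = 2.79e-07 and 1.16e-05).

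For SNHG7 probes a and c the line difference was called with DMSO and not with water, while probe b was called in both. Probe a had 1891, 878.0 and 991.8 in SUDHL-2 with DMSO but 3762, 4232 and 3630 with water, while SUDHL-4 had 4518, 4639 and 4835 with DMSO and 2668, 2981 and 2846 with water. The line difference was -2.36 ± 0.25 with DMSO (adjusted p = 4.88e-06) and -0.14 ± 0.12 with water (adjusted p = 0.313). Probe c gave -2.22 ± 0.21 with DMSO (adjusted p = 2.03e-06) and -0.34 ± 0.15 with water (adjusted p = 0.0617). With water probe c was called without water replicate 1 of SUDHL-2 (-0.48, adjusted p = 0.0186). Probe b, close to background, gave -1.40 ± 0.17 with DMSO (adjusted p = 1.4e-05) and -0.63 ± 0.15 with water (adjusted p = 0.0035), called under all 13 alternative settings of each. With the probes of the gene averaged, SNHG7 was lower in SUDHL-2 with water too (-0.37, adjusted p = 0.0102).

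SNHG9 was lower in SUDHL-2 by 1.59 ± 0.23 on the log2 scale with DMSO (adjusted p = 8.65e-05) and by 0.47 ± 0.18 with water (adjusted p = 0.0352). In the water comparison the call was lost without SUDHL-2 replicate 1 (-0.44, adjusted p = 0.0877), 2 (-0.46, adjusted p = 0.0903) or 3 (-0.50, adjusted p = 0.0591) or SUDHL-4 replicate 1 (-0.38, adjusted p = 0.117) or 3 (-0.43, adjusted p = 0.0939). SNHG1 did not differ past the threshold with DMSO (0.21 ± 0.20, 95% interval -0.21 to 0.64) and was lower in SUDHL-2 with water (-0.46 ± 0.15, adjusted p = 0.0192). That call was lost without water replicate 2 of SUDHL-2 (-0.35, adjusted p = 0.081) or replicate 3 of SUDHL-4 (-0.38, adjusted p = 0.0717). SNHG12 had -0.13 ± 0.12 and 0.12 ± 0.12, close to background in both lines.

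**Figure D4:**
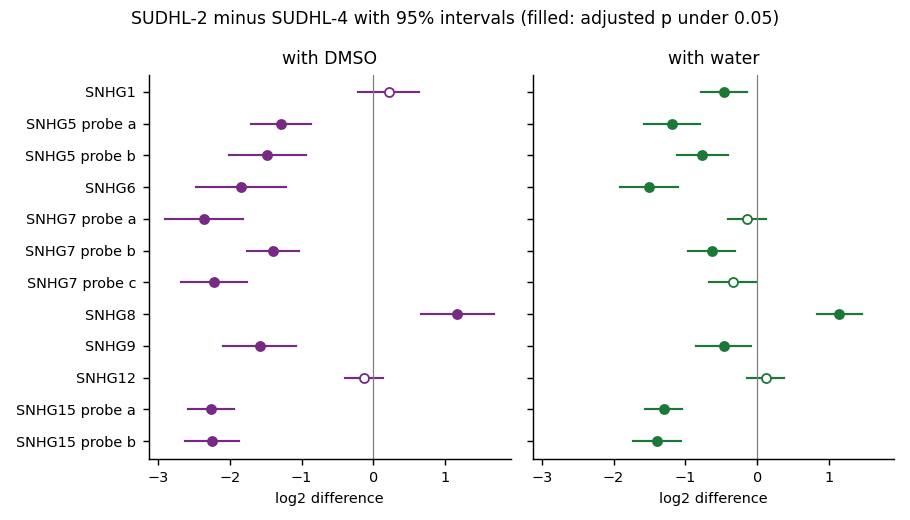
Difference in level (log2 scale) between SUDHL-2 and SUDHL-4 with DMSO and with water for the 12 tested probes, with 95% intervals, filled where the adjusted p was under 0.05. SNHG8 lies to the right in both panels (1.17 and 1.14), and SNHG7 probes a and c move from -2.36 and -2.22 with DMSO to -0.14 and -0.34 with water.

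Because the 2 baselines differed, the difference between them was tested on all 23 arrays, a comparison added after the data had been seen. The value tested was the difference of SUDHL-2 minus SUDHL-4 with DMSO, minus the same difference with water. For 6 of the 12 probes it was called lower and for 1 higher, beside 37.9% of all tested probes called (21.4% lower and 16.5% higher). The largest differences among the 12 were those of SNHG7 probe a (-2.22 ± 0.30, adjusted p = 4.18e-05) and probe c (-1.88 ± 0.27, adjusted p = 8.06e-05), followed by SNHG9 (-1.12 ± 0.31, adjusted p = 0.00904). SNHG15 probe a (-0.96 ± 0.19, adjusted p = 0.000877), SNHG15 probe b (-0.86 ± 0.24, adjusted p = 0.00922) and SNHG7 probe b (-0.77 ± 0.23, adjusted p = 0.0143) were also called. SNHG8 gave 0.03 ± 0.30, with a 95% interval of -0.59 to 0.65.

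SNHG1 was the probe called in the other direction (0.67 ± 0.26, adjusted p = 0.0473), and that call was lost in 14 of its alternative settings, 10 of which left out 1 array. For 4 of 7 probes of the other noncoding hosts the line difference was called lower with DMSO than with water, and for 0 higher (median -0.81). EPB41L4A-AS1 at -1.37 ± 0.24 (adjusted p = 0.000303) and SNHG17 at -0.95 ± 0.19 (adjusted p = 0.00107) were among them. Ribosomal proteins had 11 of 110 higher and 9 lower (median 0.12). The experiments differed in solvent and hours of exposure, and these cannot be told apart from the day or chip on which they were run. The culture vessel of the water controls is not stated.

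Across the other hosts the baseline showed the same direction in every called probe. With DMSO 4 of 7 probes were lower in SUDHL-2, SNHG17 (-2.44 ± 0.15, adjusted p = 3.4e-08) and EPB41L4A-AS1 (-1.91 ± 0.17, adjusted p = 1.14e-06) among them, and 0 were higher. With water 4 of 7 were lower and 0 higher. These are 57.1% called in each, near the share of all tested probes. That share was 55.6% with DMSO (28.4% lower and 27.2% higher) and 64.8% with water (37.0% lower and 27.8% higher). Ribosomal protein probes were called in both directions, 15 higher and 26 lower with DMSO (37.3% called) and 11 higher and 55 lower with water (60%). SNHG17 is a host gene of SNORA71 snoRNAs, and EPB41L4A-AS1 is the host transcript of SNORA13.

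The snoRNAs held by the 10 genes were looked up by their own probes. Mature snoRNAs have no poly(A) tail, and the labelling had been primed with oligo-dT, so these signals are no measure of mature snoRNAs. Of 29 probes for 28 snoRNAs, 13 were kept, and 5 were detected on all 23 arrays or all but 1 (SNORD80, SNORD22, SNORD31, SNORA24 and SNORA61). The probe of SNORA78 was detected on 0 arrays while its host SNHG9 was detected on all 23, and SNORD50A and SNORD50B were likewise at 0 beside SNHG5. SNORA9 was detected on 2 arrays, both of SUDHL-2, and its host SNHG15 on all 23.

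SNORA61, within SNHG12, had signals of 165.8 to 545.0 on all 23 arrays while the probe of its host stayed between 68.9 and 154.1. The SNORA61 probe fell with INK128 in SUDHL-4 (-0.98 ± 0.14, adjusted p = 0.000808) and in SUDHL-2 (-0.58 ± 0.14, adjusted p = 0.0486), where SNHG12 gave -0.24 ± 0.12 and -0.21 ± 0.12 and was not called. In all, 4 of the 13 snoRNA probes fell with INK128 in SUDHL-4, beside 7.05% of all tested probes called lower. They were SNORA61, SNORD25 (-0.58, adjusted p = 0.00508), SNORD30 (-0.55, adjusted p = 0.017) and SNORA73A (-0.40, adjusted p = 0.0258). SNORD30 and SNORA73A were detected on 6 and 5 of the 12 SUDHL-4 arrays. Signals over the 23 arrays were 60 to 177.4 for SNORD25, 53.3 to 204.7 for SNORD30 and 49.7 to 116 for SNORA73A. These ranges reach into or under the lowest detected signal of an array (59.4 to 91.4), to which lower signals were raised. Whether this floor contributed to the differences was not tested. With EtOH in SUDHL-2, 3 fell, beside 8.08% of all tested probes called lower. All lie within SNHG1: SNORD31 (-1.10 ± 0.14, adjusted p = 0.000594), SNORD30 (-0.68 ± 0.11, adjusted p = 0.00212) and SNORD25 (-0.44 ± 0.12, adjusted p = 0.0283). SNORD31 and SNORD30 were detected on all 11 SUDHL-2 arrays and SNORD25 on 9. The SNHG1 probe gave -0.30 ± 0.17 with EtOH in SUDHL-2 (adjusted p = 0.281), with a 95% interval of -0.66 to 0.07. Which transcript the snoRNA probes read was not tested.

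Finally the 10 host gene probes detected on all 23 arrays were averaged, after each probe had been centred within each line and experiment, and compared with all other such probes. The most alike were those of MYO19 (r = 0.786), RPL36 (0.771), ATP5ME (0.760), ZFAS1 (0.758) and TMA7 (0.741), Pearson correlations over the 23 arrays given as a description. ZFAS1 is itself a noncoding snoRNA host with a TOP start, and RPL36 a ribosomal protein. Against the mean of the other 9 probes, SNHG1 had the highest correlation (0.737), followed by SNHG5 probe b (0.666) and the SNHG15 probes (0.643 and 0.621). SNHG7 probes a and c (0.128 and 0.133) and SNHG5 probe a (0.172) had the lowest. All values share the scaling of their array, so these correlations are not independent of it.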

How the data were processed

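Polysomal RNA of SUDHL-2 and SUDHL-4 had been labelled from an oligo-dT primer and hybridised to 23 arrays in 8 groups. Per the labels' processing notes GenomeStudio 1.9.0 was used, and the authors deposited, for every probe and array, a non-normalized signal intensity and a detection p-value. Steps ahead of this export are not given in the sources used here. A deposited score per probe equalled, within 5e-10, the log signal standardised over the whole array, and was not used further.

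Of 47323 probes listed, 47231 had values. Signals below the lowest detected signal of their array (59.4 to 91.4) were raised to it, log2-transformed, standardised per array (Z-score) over 18136 probes, and multiplied by the mean SD (2.03). A probe was kept where all arrays of any 1 group had a detection p of 0.02 or less. limma 3.58.1 in R 4.3.3 fitted the 4 groups of an experiment together by probe, and all 23 arrays for EtOH against INK128. p-values were Benjamini-Hochberg adjusted over all tested probes. The fit was tested on simulated data. Sequences were taken from RefSeq with Python 3.11.15 (pandas 2.3.3; figures, matplotlib 3.10.9).

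The members and gene lists were chosen with earlier results of these data known. Named genes were all members and, of each list, up to 4 genes by smallest p over the 4 treatment comparisons, all kept probes of other noncoding hosts and hosted snoRNAs, and the 5 probes most like the members. Where genes were chosen by p, each was named with its probe of smallest p. Ribosomal protein and other lists were counted by probe. Symbols were those of the platform annotation, and 4090 kept probes had none. The alternatives were quantile normalization, median centring, normexp background correction (offset of 16), the Z-score over all probes read, 2 other detection filters, averaged probes, replicate blocks, each line alone, all arrays together and leaving out each array.

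Pairing by the replicate numbers of the titles was checked by correlating deviations from the group means of same-numbered treated and control arrays. With EtOH the SUDHL-2 pairs gave 0.416 and 0.543, the SUDHL-4 pairs 0.374, 0.194 and 0.14. Arrays of unlike title number were compared only where the sample names pair them, so this check cannot decide whether the numbers are pairs. With INK128 they ranged from -0.29 to 0.478. The numbers in the sample names pair SUDHL-4 arrays with EtOH otherwise (0.374, 0.037 and 0.24).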

Additional observations from a re-analysis of the deposited data

Results flagged for a closer look

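Responses that differed between lines, agents or baselines past the adjusted threshold were singled out. Between the lines, the INK128 response of SNHG9 in SUDHL-2 minus that in SUDHL-4 was 1.38 (adjusted p = 0.0392).

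Between the agents in SUDHL-4, the EtOH response minus the INK128 response was 1.61 for SNHG9 (adjusted p = 0.0025), 1.04 for SNHG5 probe b (adjusted p = 0.047) and 0.62 for SNHG15 probe a (adjusted p = 0.0481). It was -1.18 for SNHG7 probe c (adjusted p = 0.0093), -1.04 for SNHG8 (adjusted p = 0.0322) and -1.002 for SNHG7 probe a (adjusted p = 0.0399). With DMSO instead of water as the baseline, the difference between SUDHL-2 and SUDHL-4 changed by -2.22 for SNHG7 probe a (adjusted p = 4.18e-05), -1.88 for SNHG7 probe c (adjusted p = 8.06e-05) and -0.77 for SNHG7 probe b (adjusted p = 0.0143). It changed by -1.12 for SNHG9 (adjusted p = 0.00904), -0.96 for SNHG15 probe a (adjusted p = 0.000877), -0.86 for SNHG15 probe b (adjusted p = 0.00922) and 0.67 for SNHG1 (adjusted p = 0.0473). These comparisons share the DMSO and water arrays with those of the treatments, and their values are not independent of them.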

How the results depend on the processing

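Of the 2354 values recomputed, 109 lost a call, 35 gained one, 1 reversed and 2209 kept their side of the threshold, of which 100 changed sign without being called either way. SNHG7 probe b with INK128 in SUDHL-4 went from -0.67 to 0.29 (adjusted p = 0.366) once the 3 probes of the gene were averaged, which merges it with probes a and c. The other changes below were not traced to a cause.

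With INK128 in SUDHL-2 the number of host gene probes called went from 0 to 1 with all arrays fitted together and with a replicate block by title or by sample-name numbers (SNHG5 probe a), and was 0 to 1 on leaving out an array. With INK128 in SUDHL-4 it went from 5 to 2 (of 8 genes) with probes averaged and to 8 with all arrays together, and was 3 to 4 on leaving out an array, with 3 without DMSO replicate 3. The difference between the lines went from 1 to 0 with quantile normalization, the Z-score over all probes read and no detection filter, to 5 with all arrays together, and was 0 to 2 on leaving out an array. With a replicate block it stayed at 1, but SNHG7 probe c (adjusted p = 0.0401) took the place of SNHG9 (adjusted p = 0.0559). EtOH against INK128 in SUDHL-4 went from 6 to 3 with normexp and with a replicate block by sample-name numbers, to 2 with no filter, and was 2 to 4 on leaving out an array.

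Between the lines with DMSO, 10 became 6 (of 8 genes) with probes averaged, and in the difference between the baselines 7 became 4. Both treatments with EtOH, their difference between lines, and EtOH against INK128 in SUDHL-2 gave 0 host gene probes in all settings run. No paired analysis was possible for the comparisons between untreated lines, because each pair of numbered arrays lies within 1 line. Over all probes, EtOH in SUDHL-4 called 45, from 0 to 155 across settings, and INK128 in SUDHL-2 called 637, from 7 to 1718. Median centring moved the median of all probes between the lines with water from -0.11 to -0.24. GAS5 was detected on 0 arrays and SNHG3 on 1, and SNHG12 and SNHG7 probe b lay close to it.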
